A study of Mus musculus with 3 samples.

Results

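The genes described here encode secreted proteins that hold BMPs, the related growth and differentiation factors (GDFs) or activins away from their receptors. They are Nog, Chrd, Chrdl1, Chrdl2, Grem1, Cer1, Bmper, Fst and Twsg1, chosen by gene symbol, and all 9 were found among the 23284 symbols that each library lists. The choice was made with earlier results of these data known, so counts of members set beside all genes are not those of a blind list. RNA-seq was done on 3 populations of cells sorted from mouse embryonic digits by a GFP reporter, with 1 library per population. The Sox9+ library came from digits at E13.5 (E for embryonic day) in Sox9-eGFP/+ embryos, in which GFP reports the chondrocyte transcription factor gene Sox9. The Lgr5+ and Lgr5- libraries are from E14.5 forelimb digits of Lgr5-eGFPCreERT2/+ embryos and hold the GFP-positive and the GFP-negative cells. The labels call the Lgr5+ cells interzone, the band of cells where a joint will form, and the Lgr5- cells non-interzone. All embryos are given as C57/bl6 and no population was given a treatment in the labels. The eGFPCreERT2 allele is present in both Lgr5 libraries, and the day, the mouse line and possibly the limb differ between these and the Sox9+ library, so those differences cannot be told apart from the sorted cell type. The number of embryos behind each library is not given in the sources used here.

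BMPs and GDFs signal through paired type I and type II receptors to Smad1, Smad5 and Smad9, while activins signal through Smad2 and Smad3. In the limb, BMPs drive condensation and growth of cartilage and also cell death between the digits, whereas Gdf5, a member of the same family, marks the joint interzone. Noggin, the product of Nog, binds BMPs and GDFs and covers their receptor-binding surfaces, and mouse embryos without it form no joints in the limbs. Chordin and its relatives bind BMPs through cysteine-rich repeats, and tolloid proteases cut chordin to release the ligand. Gremlin and cerberus belong to the DAN family of cystine-knot antagonists, and follistatin wraps around activins and, less tightly, some BMPs.

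Values are in FPKM (mapped fragments corrected for transcript length and library total), which is a level per length and so can be set side by side between genes of a library. Differences are log2 ratios of FPKM + 1, a fold is the ratio of FPKM + 1, and both understate differences of weakly expressed genes. Measured genes are those that reach 1 FPKM or more in either library of a pair, and a difference of 2-fold or more counts as higher or lower. With 1 library per population there is no replicate error for any value, no test was possible, no p-value is given, and each difference is between libraries. In sorted bulk RNA, fewer cells that express a gene and less of its RNA per cell cannot be told apart. The files hold no read counts, so the depth behind a value is unknown.

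The sorting genes followed the labels in the Lgr5 pair, with Lgr5 at 26.8 FPKM in Lgr5+ cells, 1.36 FPKM in Lgr5- cells and 3.48 FPKM in Sox9+ cells. For Sox9 the values were 332, 147 and 255 FPKM in that order, so the library sorted on the Sox9 reporter did not hold the most. Between 11924 and 12002 genes reached 1 FPKM in a library. Rn45s, the precursor of ribosomal RNA, made up 6.43% of all FPKM in Sox9+ cells, 1.86% in Lgr5+ cells and 6.13% in Lgr5- cells, and globin genes took 1.01% in Lgr5- cells, 0.0295% in Sox9+ cells and 0.0361% in Lgr5+ cells. Of the 12 interzone markers, 9 were at least 2-fold higher in Lgr5+ than in Lgr5- cells. Markers of other cells differed as well. The 12 muscle markers summed to 110 FPKM in Lgr5+ cells, 28.9 FPKM in Lgr5- cells and 20.4 FPKM in Sox9+ cells, with only Pax7 at 0 in any library (Sox9+). The 10 epidermal markers summed to 57.8, 25.5 and 63.9 FPKM in the same order, with none at 0, and the 8 endothelial markers to 10.7, 14.4 and 5.81 FPKM, with none at 0.

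**Figure D1:**
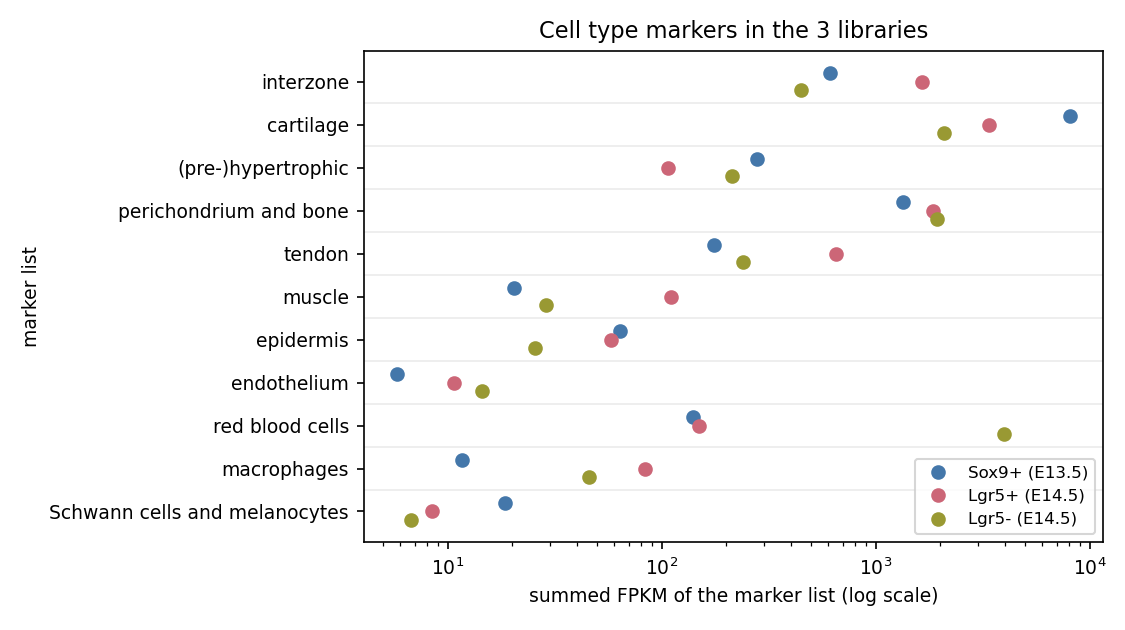
Summed FPKM (log axis) of each cell type marker list (rows) in the 3 libraries (coloured points, 1 library per population). Interzone, tendon and muscle markers are highest in the Lgr5+ library, cartilage markers in the Sox9+ library (8046 FPKM) and red blood cell markers in the Lgr5- library (3976 FPKM).

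Nog and Twsg1 were the abundant members in every library. Twsg1 encodes twisted gastrulation, which binds BMPs together with chordin and can either strengthen or weaken the antagonist. It stood at 56.0 FPKM in Sox9+ cells, 73.9 FPKM in Lgr5+ cells and 43.3 FPKM in Lgr5- cells. Nog stood at 56.5, 62.8 and 22.4 FPKM. Together the 2 genes made up 69.6% of the summed FPKM of the 9 members in the Sox9+ library, 69.3% in Lgr5+ cells and 66.9% in Lgr5- cells. The other members ranged from 2.53 to 12.5 FPKM in Sox9+ cells, from 2.71 to 14.3 FPKM in Lgr5+ cells and from 0.03 to 10.9 FPKM in Lgr5- cells. The lowest value was that of Cer1 and was the only one near 0.

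The sum over the 9 members was 197 FPKM in Lgr5+ cells, 161 FPKM in Sox9+ cells and 98.1 FPKM in Lgr5- cells. Over these 9 genes the Lgr5- library thus held the lowest total, and the sum of the Lgr5+ library was 2.01 times as high. The largest part of that gap was Nog and Twsg1, and the remaining 7 members summed to 60.5 FPKM in Lgr5+ cells and 32.4 FPKM in Lgr5- cells. Their make-up differed too. Fst and Bmper took 11.1% and 10.5% of the member sum in the Lgr5- library but 3.70% and 2.58% in Lgr5+ cells. Chrdl2 and Cer1 took 7.26% and 5.60% in Lgr5+ cells but 0.866% and 0.0306% in Lgr5- cells. Other secreted antagonists lie outside this sum. Among them is Nbl1, a DAN family gene, at 27.5 FPKM in Sox9+ cells, 116 FPKM in Lgr5+ cells and 157 FPKM in Lgr5- cells. Nbl1 was thus above every member in both Lgr5 libraries and highest in the Lgr5- library, so the order of the sums holds for the 9 members alone.

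**Figure D2:**
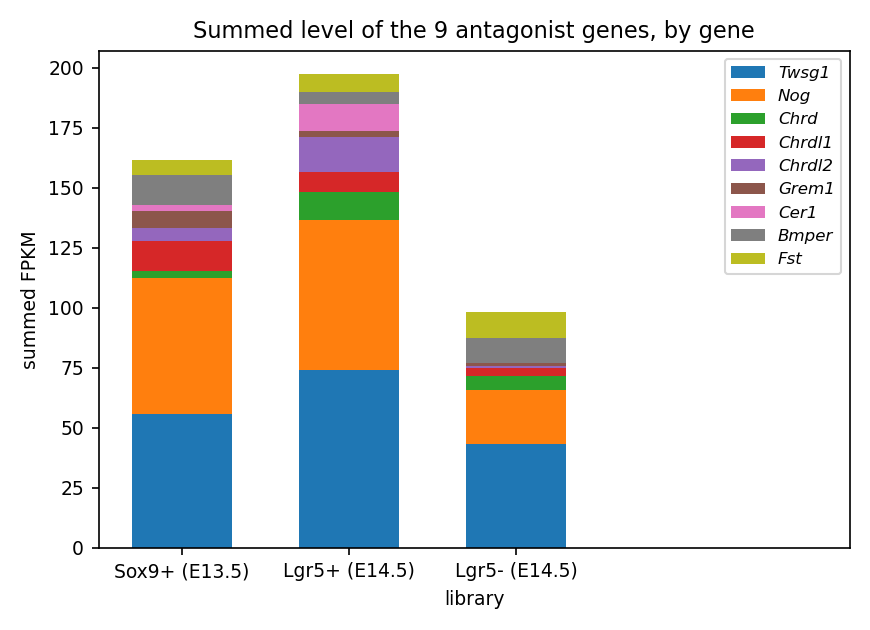
Summed FPKM of the 9 antagonist genes (bar height, linear axis from 0) in the 3 libraries, with each gene as a coloured segment; there are no replicates and so no error bars. Twsg1 and Nog form 66.9% to 69.6% of each bar, and the Chrdl2 and Cer1 segments of the Lgr5+ bar all but vanish in the Lgr5- bar.

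In the comparison of Lgr5+ with Lgr5- cells, which sets interzone-labelled cells against the reporter-negative remainder of the digit at the same stage, 4 of the 9 members were higher by 2-fold or more in Lgr5+ cells and 0 were 2-fold lower. Among all 12438 measured genes 3.64% were higher and 1.89% lower by this rule. The share of higher genes was 3.37% among genes that stayed under 20 FPKM and 4.15% among the others, so it was similar on either side of that level. Finer levels were not compared. The 4 members were Cer1 (11.7-fold), Chrdl2 (8.28-fold), Nog (2.73-fold) and Chrdl1 (2.13-fold). Chrd, Grem1 and Twsg1 were higher by less than 2-fold, and Bmper and Fst were the 2 members with lower values in the Lgr5+ library. The median log2 ratio of the members was 0.89, beside 0.08 for all measured genes. Cell type markers moved with them. In Lgr5+ cells 6 of 8 tendon, 9 of 11 muscle, 5 of 9 epidermal, 3 of 8 macrophage and 4 of 12 cartilage markers were higher by 2-fold or more, while 7 of 7 red blood cell, 4 of 9 hypertrophic and 3 of 8 perichondrium and bone markers were lower. Their part in the member differences was not tested. The direction of all 9 ratios was kept under each of the 6 other pseudocounts and scalings that were run. Chrdl1, however, was past 2-fold by a small margin, and its log2 ratio of 1.09 became 0.68 with a pseudocount of 5 FPKM. Higher genes made up 65.8% of all genes past 2-fold in this comparison, and from 57.4% to 63.4% under the 4 other scalings.

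**Figure D3:**
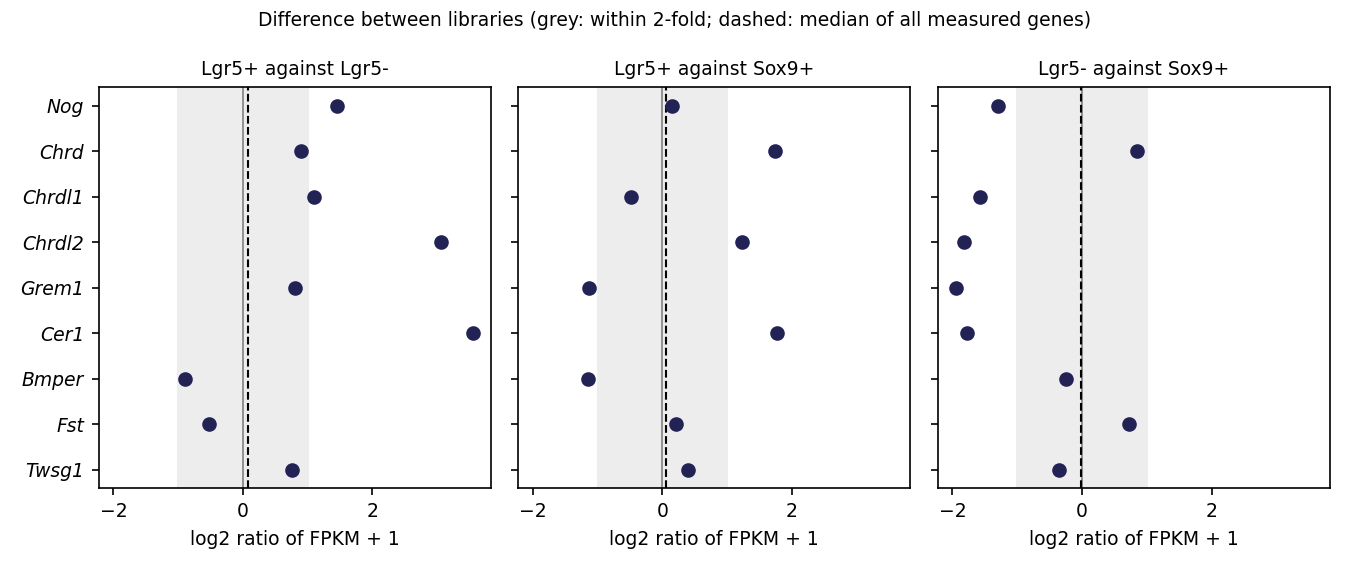
Log2 ratio of FPKM + 1 (x axis) of each member (y axis) in the 3 pairs of libraries, 1 point per gene, with the 2-fold band in grey and the median of all measured genes dashed. Cer1 (3.55) and Chrdl2 (3.05) lie farthest right between the Lgr5 libraries, and 5 members lie left of the band in the comparison of Lgr5- with Sox9+ cells.

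Against the Sox9+ library the Lgr5+ library was mixed. Here 3 members were at least 2-fold higher, namely Cer1 (3.41-fold), Chrd (3.34-fold) and Chrdl2 (2.35-fold), and 2 were lower, namely Bmper (2.22-fold) and Grem1 (2.20-fold). Of 12492 measured genes 4.33% were higher and 3.96% lower. Nog, Twsg1, Fst and Chrdl1 lay within 2-fold, with Nog at a log2 ratio of 0.15. Beside these values, 6 of 12 interzone, 7 of 8 tendon, 10 of 11 muscle and 7 of 8 macrophage markers were higher in Lgr5+ than in Sox9+ cells. Lower were 8 of 12 cartilage and 9 of 10 hypertrophic markers, and of 9 epidermal markers 3 were higher and 2 lower. The part of any of these cells in the member differences was not tested. With a pseudocount of 5 FPKM, Chrdl2 (0.88), Bmper (−0.79) and Grem1 (−0.66) all came within 2-fold, while Cer1 and Chrd, both at 1.09, did not. Higher genes made up 52.2% of all genes past 2-fold in this comparison, 64.8% after rescaling each library to an equal sum (TPM), 56.0% with sums that leave out the most abundant genes, 48.1% after quantile normalization and 47.0% with median-of-ratios scaling.

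For these members the Lgr5- library was the low one against the Sox9+ library as well. In it 5 of 9 members were at least 2-fold lower and 0 were 2-fold higher, beside 4.94% and 3.08% of 12482 measured genes. They were Grem1 (3.87-fold lower), Chrdl2 (3.52-fold), Cer1 (3.43-fold), Chrdl1 (2.98-fold) and Nog (2.46-fold). Fst and Chrd had higher values in the Lgr5- library, at 1.65-fold and 1.80-fold, and Bmper and Twsg1 lay close to the Sox9+ level. Chrd passed 2-fold in TPM, with a log2 ratio of 1.03. Beside these values, 11 of 12 cartilage, 6 of 10 hypertrophic and 5 of 7 epidermal markers were lower in Lgr5- than in Sox9+ cells, while 7 of 7 red blood cell, 4 of 8 tendon and 4 of 6 macrophage markers were higher, and their part was not tested. With a pseudocount of 5 FPKM, Grem1 (−0.99), Chrdl2 (−0.85) and Cer1 (−0.58) came within 2-fold. Higher genes made up 38.4% of all genes past 2-fold here, 52.3% after rescaling to TPM and 50.7% with sums that leave out the most abundant genes. The share was 39.2% with median-of-ratios scaling and 40.8% after quantile normalization. The 3 comparisons share libraries, so each low or high value of a library enters 2 of them.

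**Figure D4:**
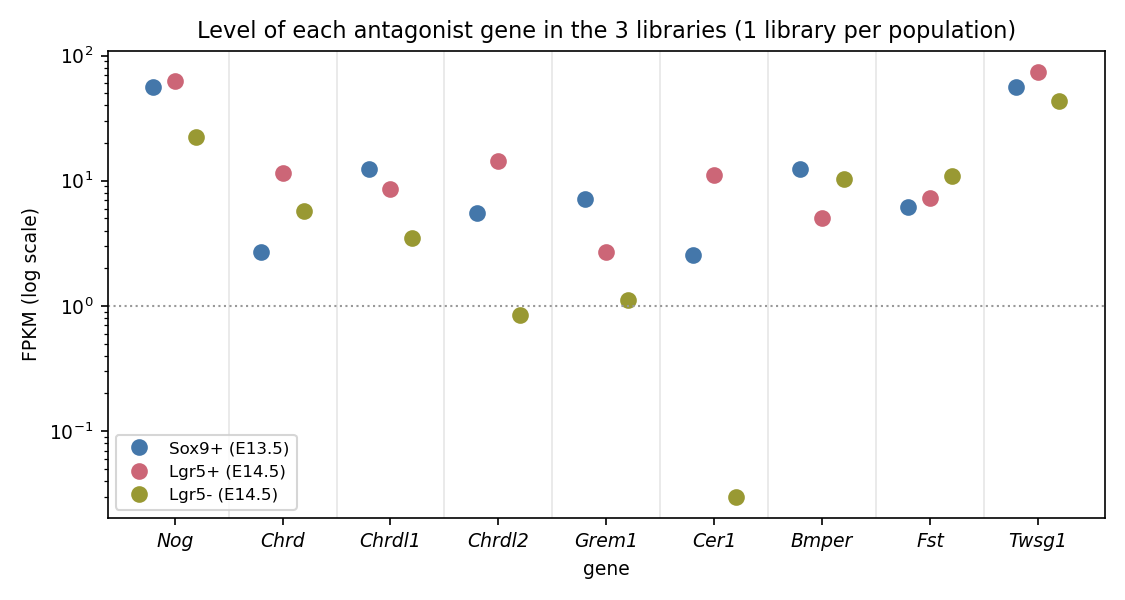
FPKM (log axis) of each member (x axis) in the Sox9+, Lgr5+ and Lgr5- libraries (coloured points, 1 library each), with 1 FPKM dotted. Cer1 spans from 0.03 to 11.0 FPKM, whereas Fst and Twsg1 each stay within 2-fold over the 3 libraries.

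Nog was high in the Sox9+ and Lgr5+ libraries (56.5 and 62.8 FPKM) and low in the Lgr5- library (22.4 FPKM). Its percentile among genes above 0 was 91.0 and 91.5 in the first 2 libraries and 79.2 in the Lgr5- library. Nog is a single-exon protein-coding gene on the minus strand of GRCm38 chromosome 11 (89300638 to 89302332), and no other annotated gene overlaps it. All 9 members are annotated as protein-coding, and the positions given are whole genes on GRCm38. Nog is known from condensing cartilage, and of the 12 cartilage markers 11 were at least 2-fold lower in Lgr5- than in Sox9+ cells and 8 in Lgr5+ than in Sox9+ cells. They summed to 8046 FPKM in Sox9+ cells, 3389 FPKM in Lgr5+ cells and 2086 FPKM in Lgr5- cells, with none at 0. Nog itself differed by 1.11-fold between the Lgr5+ and Sox9+ libraries. The cartilage list was split in that pair. Beside the 8 lower markers, Sox9, Sox5 and Sox6 had higher values in Lgr5+ cells and ranked the libraries as Nog did. They stood at 332, 35.1 and 38.6 FPKM in Lgr5+ cells and 255, 21.3 and 30.3 FPKM in Sox9+ cells. In Lgr5- cells they stood at 147, 10.0 and 11.0 FPKM. The part of cartilage cell content in the Nog differences was not tested.

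A different gene of the chordin group led in each library. Chrd encodes chordin (chromosome 16, 20733127 to 20742384, plus strand), and Chrdl1 (chromosome X, 143285674 to 143394262, minus strand) and Chrdl2 (chromosome 7, 100006172 to 100034728, plus strand) encode chordin-like proteins with fewer repeats. Chrdl1 led the 3 genes in the Sox9+ library with 60.3% of their summed FPKM, Chrdl2 in Lgr5+ cells with 41.6%, and Chrd in the Lgr5- library with 56.6%. Their sum was 20.7 FPKM in Sox9+ cells, 34.4 FPKM in Lgr5+ cells and 10.1 FPKM in Lgr5- cells.

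Chrd stood at 2.72 FPKM in Sox9+ cells, 11.4 FPKM in Lgr5+ cells and 5.69 FPKM in Lgr5- cells, so both E14.5 libraries were above the E13.5 library. Thpo, a gene on the opposite strand that overlaps Chrd, was at 0.82 FPKM or less in each library. Chrdl1 was instead highest at E13.5, with 12.5 FPKM in Sox9+ cells, 8.64 FPKM in Lgr5+ cells and 3.52 FPKM in Lgr5- cells. Chrdl2 stood at 5.52, 14.3 and 0.85 FPKM, and the Lgr5- value was the only one under 1 FPKM. Beside the Chrdl2 difference, 9 of 12 interzone, 6 of 8 tendon, 9 of 11 muscle and 5 of 9 epidermal markers were also higher in Lgr5+ than in Lgr5- cells by 2-fold or more. So were 3 of 8 macrophage and 4 of 12 cartilage markers, while 7 of 7 red blood cell markers and some of other lists were lower. The part of any of these cells in the Chrdl2 difference was not tested.

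Cer1 encodes cerberus, which blocks BMPs and Nodal and is best known from the early embryo (chromosome 4, 82881751 to 82885148, minus strand, with 2 exons and no overlapping gene). It stood at 2.53 FPKM in Sox9+ cells, 11.0 FPKM in Lgr5+ cells and 0.03 FPKM in Lgr5- cells. The Lgr5- value was thus close to none while the other 2 libraries were above 1 FPKM. Of all measured genes, 0.09% had a higher ratio of the Lgr5+ to the Lgr5- library. The size of that ratio rests on the pseudocount, with a log2 value of 6.42 at 0.1 FPKM and 1.67 at 5 FPKM. Nodal, its other known target, was at 0.02 FPKM in Sox9+ cells and listed at 0 in both Lgr5 libraries.

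Grem1 encodes gremlin, another DAN family protein, which in the earlier limb bud keeps BMPs low around the signalling centre at the tip (chromosome 2, 113746164 to 113758646, minus strand, with no overlapping gene). It stood at 7.16 FPKM in Sox9+ cells, 2.71 FPKM in Lgr5+ cells and 1.11 FPKM in Lgr5- cells. The E13.5 library was the highest, and the Lgr5 libraries lay 1.76-fold apart, a log2 ratio of 0.81 that became 1.22 with a pseudocount of 0.1 FPKM and also reached 2-fold in TPM. Grem1 and Cer1, of one protein family, therefore ranked the libraries differently.

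The promoters of Cer1, Grem1 and Chrd are shown because these 3 genes had their highest and lowest libraries in different orders. Each sequence runs 5′ to 3′ from 250 bases before the RefSeq start to 50 bases from it on, on build GRCm38.p6, and promoter sequences were matched for 5 of the 9 members. Capitals mark matches, on either strand, to any of 5 motifs. Smad proteins bind the short box CAGAC. They also bind the richer site written GGCGCC, which reads the same from either strand. The core of the Sox protein site was taken as AACAAT for this search. The site of TCF factors, which act in Wnt signalling, was searched with the letters CTTTGA alone. The TATA box, found near the start of some genes, was searched as TATAAA in the same way.
Cer1, chr4:82885102-82885401, minus strand: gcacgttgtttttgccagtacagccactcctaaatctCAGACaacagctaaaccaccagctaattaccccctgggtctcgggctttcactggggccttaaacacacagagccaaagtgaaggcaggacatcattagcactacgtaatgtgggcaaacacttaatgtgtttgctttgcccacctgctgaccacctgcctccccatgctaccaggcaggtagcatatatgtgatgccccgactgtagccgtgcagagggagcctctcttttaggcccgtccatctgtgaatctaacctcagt
Grem1, chr2:113758599-113758898, minus strand: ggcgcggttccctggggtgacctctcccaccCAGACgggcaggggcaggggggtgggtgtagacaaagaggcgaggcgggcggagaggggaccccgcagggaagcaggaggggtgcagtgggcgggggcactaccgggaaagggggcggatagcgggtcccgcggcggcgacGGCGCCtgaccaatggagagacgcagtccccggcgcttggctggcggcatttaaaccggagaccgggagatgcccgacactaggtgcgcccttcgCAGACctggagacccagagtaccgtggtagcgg
Chrd, chr16:20732877-20733176, plus strand: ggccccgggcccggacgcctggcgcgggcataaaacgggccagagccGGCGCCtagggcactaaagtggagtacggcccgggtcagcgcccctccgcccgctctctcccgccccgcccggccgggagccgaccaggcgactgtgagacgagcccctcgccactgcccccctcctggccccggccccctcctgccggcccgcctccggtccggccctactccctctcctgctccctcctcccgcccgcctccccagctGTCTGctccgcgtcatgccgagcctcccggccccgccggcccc

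CAGAC was found in all 3 of these windows and in that of Twsg1, and it is common, being present in 49.6% of 32851 promoter windows of the same length. It lay at position −213 in Cer1 and at positions −219 and 17 in Grem1, where the start is position 0. In Chrd the match is on the opposite strand, as gtctg, from position 7. GGCGCC was found in Chrd and Grem1, beside 11.9% of all windows, at positions −203 and −78. The windows of Chrd and Grem1 were 78.3% and 70.7% GC and that of Cer1 51.7%, with a median of 52.7% over all windows. The Sox and TATA letters were in none of the 5 member windows, beside 10.7% and 13.6% of all windows. The TCF letters were in that of Bmper alone, beside 16.0%. A match shows that these letters are in the window and no more.

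Bmper encodes a secreted protein that resembles the fly crossveinless-2 and can inhibit or promote BMP signalling (chromosome 9, 23223076 to 23485200, plus strand). It stood at 12.5 FPKM in Sox9+ cells, 5.08 FPKM in Lgr5+ cells and 10.35 FPKM in Lgr5- cells, and was the only member lowest in the Lgr5+ library. Between the Lgr5 libraries its log2 ratio was −0.90, and 2.46% of measured genes had a lower ratio. With a pseudocount of 0.1 FPKM it was −1.01 and so past 2-fold. Bmper is also known from endothelial cells, whose 8 markers summed to 10.7 FPKM in Lgr5+ cells, 14.4 FPKM in Lgr5- cells and 5.81 FPKM in Sox9+ cells. None of the measured endothelial markers differed by 2-fold in any pair. However, 7 of the 8 were under 1 FPKM in Sox9+ cells, and at such levels FPKM + 1 damps differences. The part of endothelial cells in the Bmper values was not tested.

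Fst encodes follistatin, the main activin antagonist (chromosome 13, 114452290 to 114458951, minus strand). It stood at 6.19 FPKM in Sox9+ cells, 7.30 FPKM in Lgr5+ cells and 10.9 FPKM in Lgr5- cells, and lay within 2-fold in all 3 pairs. It was the only member highest in the Lgr5- library. An annotated antisense RNA, Gm47040, overlaps Fst and is not among the listed symbols. Fst is also expressed in muscle and skin. Of 11 measured muscle markers 9 were at least 2-fold higher in Lgr5+ than in Lgr5- cells. Of 9 measured epidermal markers 5 were higher there as well, and the part of either cell type in the Fst values was not tested.

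Twsg1 (chromosome 17, 65921972 to 65951226, minus strand) varied little. Its values of 56.0, 73.9 and 43.3 FPKM in the Sox9+, Lgr5+ and Lgr5- libraries span 1.69-fold. Nog and Twsg1 were level in the Sox9+ library, at 1.01 FPKM of Nog per FPKM of Twsg1, while that ratio was 0.849 in Lgr5+ cells and 0.517 in Lgr5- cells.

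The ligands that these proteins bind were read from a list of 13 BMP and GDF genes, of which 8 were measured. Between the Lgr5 libraries 2 were higher by 2-fold or more in Lgr5+ cells, Gdf5 at 615 against 71.7 FPKM and Bmp6 at 4.78 against 0.93 FPKM. The 2 lower ones were Bmp3, an atypical BMP that opposes the others, at 1.32 against 5.68 FPKM, and Bmp7 at 21.8 against 52.5 FPKM. Beside these calls, 3.64% of all measured genes were higher and 1.89% lower by 2-fold or more. The median log2 ratio of the 8 ligands was −0.66, beside 0.08 for all genes. Of these ligands 6 of 8 had lower values in Lgr5+ cells, and 7 of 9 antagonists had higher values there. Among all 12438 measured genes 7390 had higher and 5026 lower values in Lgr5+ cells. Within 2-fold lay 4 of the 8 ligands and 5 of the 9 antagonists. Against the Sox9+ library, Bmp2 (60.7 against 16.1 FPKM) and Bmp5 (10.2 against 2.69 FPKM) were lower in the Lgr5+ library and Gdf5 was 10.1-fold higher. In Lgr5- against Sox9+ cells, Bmp2, Bmp6 and Bmp5 were lower, with log2 ratios of −1.69, −1.69 and −1.03, and Bmp3 was higher at 1.28. By the same rule 4.33% of all measured genes were higher and 3.96% lower in Lgr5+ than in Sox9+ cells. For Lgr5- against Sox9+ cells these shares were 3.08% and 4.94%.

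Levels of antagonists and ligands can be set against each other within a library, where a common scaling cancels. The members summed to 0.836 FPKM per FPKM of BMP and GDF ligands in the Sox9+ library, 0.293 in Lgr5+ cells and 0.558 in Lgr5- cells. The sums do not match in kind. The members include Fst, mainly an activin antagonist, and Twsg1, which can strengthen or weaken an antagonist, and the ligands include Bmp3, which opposes the others. Gdf5 alone made up 615 of the 674 FPKM of ligands in Lgr5+ cells. Without it the ratios were 1.21, 3.35 and 0.943, and the Lgr5+ library had the highest. Per FPKM of Gdf5 there were 0.943 FPKM of Nog in the Sox9+ library, 0.102 in Lgr5+ cells and 0.312 in Lgr5- cells. Antagonists outside the 9 members, such as Nbl1 with its highest level in Lgr5- cells, are not in these ratios. These are ratios of RNA levels in sorted cells and not of proteins in the tissue.

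On the activin side, Inhba, which encodes the activin A subunit, stood at 19.6 FPKM in Sox9+ cells, 74.2 FPKM in Lgr5+ cells and 6.76 FPKM in Lgr5- cells, and it was the most abundant of the activin-type ligands in the first 2. There were 0.317 FPKM of Fst per FPKM of Inhba in the Sox9+ library, 0.0984 in Lgr5+ cells and 1.61 in Lgr5- cells. Fst was thus above Inhba in the Lgr5- library and below it in the other 2. Of 5 measured activin-type ligands, Inhba and Gdf1 (9.10 against 3.67 FPKM) were at least 2-fold higher in Lgr5+ than in Lgr5- cells, beside 3.64% of all measured genes. Both were also higher than in Sox9+ cells, at 3.66-fold and 2.31-fold, beside 4.33% of all measured genes. Inhba was the 1 gene lower in Lgr5- than in Sox9+ cells, with a log2 ratio of −1.41, beside 4.94% of all measured genes. Inha, which encodes the inhibin subunit that opposes activin and stands in the same list, was at 10.8 FPKM in Lgr5- cells.

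**Figure D5:**
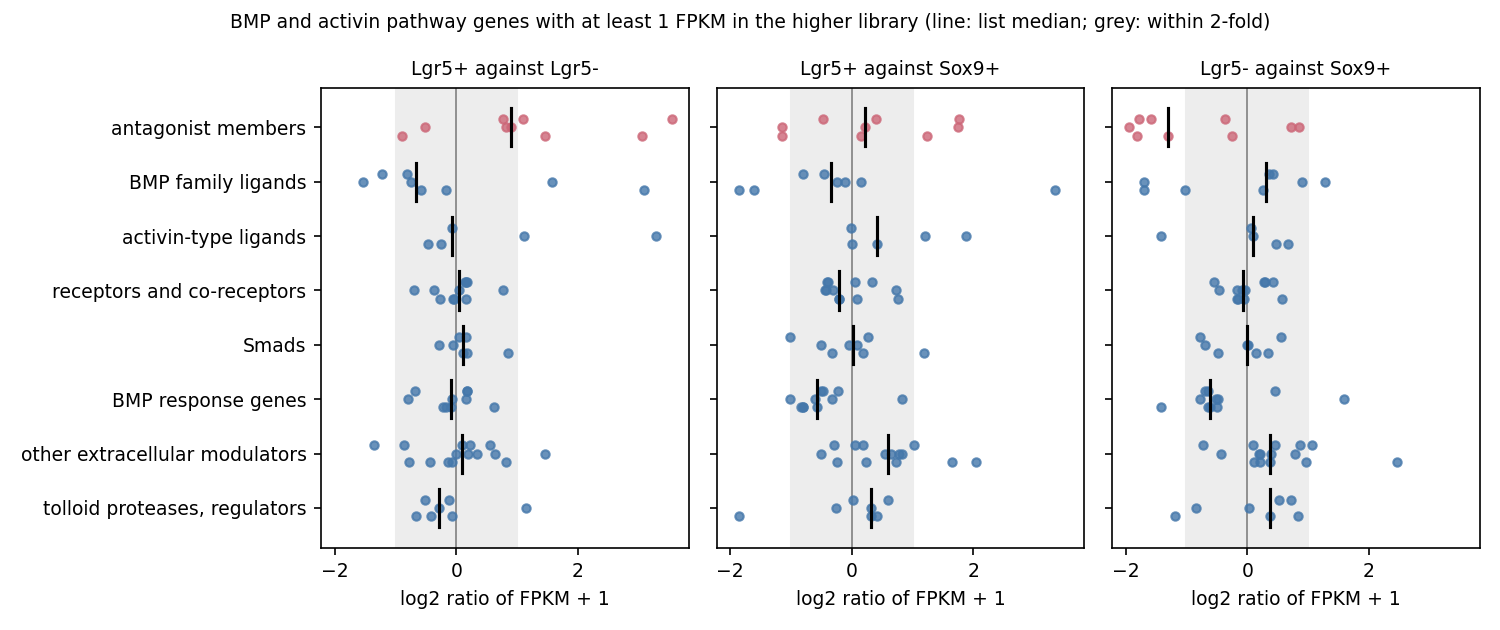
Log2 ratio of FPKM + 1 (x axis) of the antagonist members (red) and of other BMP and activin pathway genes (blue) in the 3 pairs of libraries, 1 point per measured gene, with list medians as black lines and the 2-fold band in grey. Between the Lgr5 libraries the median of the members is 0.89 and that of the BMP ligands −0.66, while all receptors, Smads and BMP response genes lie within the band.

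Receptors, Smads and response genes were read next. Between the Lgr5 libraries none of 11 measured receptors and co-receptors, of 7 Smads or of 10 BMP response genes passed 2-fold in either direction, with medians of 0.05, 0.10 and −0.09. Since 3.64% of all measured genes were higher and 1.89% lower, counts of 0 in lists of this size lie near the background. The most abundant of each were Bmpr1a, a BMP type I receptor (29.6 FPKM in Lgr5+ cells and 30.5 FPKM in Lgr5- cells), Smad1 in Lgr5+ cells (59.3 FPKM) and Smad4, the partner shared by all of them, in Lgr5- cells (43.2 FPKM), and Id3 (2564 and 2276 FPKM), a classic BMP response gene. Of 11 response genes measured in Lgr5+ against Sox9+ cells, 10 had lower values in Lgr5+ cells, beside 5534 of all 12492 measured genes. Their median was −0.58 beside 0.06 for all genes, but only Smad9 passed 2-fold (0.52 against 2.06 FPKM). For Lgr5- against Sox9+ cells the median was −0.61 beside −0.01, with Id4 (47.4 against 129 FPKM) lower and Msx1 (117 against 37.8 FPKM) higher by 2-fold or more. Smad1 was 2.29-fold higher in Lgr5+ than in Sox9+ cells. All measured genes against Sox9+ cells were higher by 2-fold in 4.33% (Lgr5+) and 3.08% (Lgr5-) of cases, and lower in 3.96% and 4.94%. Smad6, Smad7 and Smad9 stand in both the Smad and the response list.

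Other extracellular modulators, 20 genes fixed as a list, had a median close to that of all genes between the Lgr5 libraries. Between the Lgr5 libraries 1 of 15 measured, the protease gene Htra3 (35.6 against 12.4 FPKM), was higher by 2-fold or more in Lgr5+ cells. Sostdc1, which encodes a BMP and Wnt antagonist, was the 1 lower, at 13.7 against 36.6 FPKM. The median was 0.09, beside 0.08 for all genes. By the same rule 3.64% of all measured genes were higher and 1.89% lower in Lgr5+ than in Lgr5- cells. Against the Sox9+ library, 3 of 14 were higher in Lgr5+ cells (Nbl1, Htra3 and Htra1) and 2 of 15 in Lgr5- cells (Nbl1 and Sostdc1), with none lower. Among all measured genes 4.33% were higher and 3.96% lower in Lgr5+ cells, and 3.08% were higher and 4.94% lower in Lgr5- cells. Nbl1, the founding DAN gene and a relative of Grem1 and Cer1, was abundant at E14.5, with 116 FPKM in Lgr5+ cells and 157 FPKM in Lgr5- cells, against 27.5 FPKM in Sox9+ cells. Gpc3, a cell surface heparan sulfate proteoglycan gene, was the most abundant of this list at 889 FPKM in Sox9+ cells, 627 FPKM in Lgr5+ cells and 534 FPKM in Lgr5- cells.

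Of the 7 measured genes for tolloid proteases and their regulators, Sfrp2, a secreted Wnt modulator that also acts on tolloid, was the most abundant. Sfrp2 was also the 1 gene at least 2-fold higher in Lgr5+ than in Lgr5- cells, at 451 against 203 FPKM, beside 3.64% of all measured genes. Bmp1, which despite its name encodes the main chordin-cleaving protease, stood at 63.8 FPKM in Sox9+ cells, 79.2 FPKM in Lgr5+ cells and 83.2 FPKM in Lgr5- cells, and so above Chrd in each. Pcolce2, an enhancer of that protease on procollagen, was 3.60-fold lower in Lgr5+ than in Sox9+ cells, and its log2 ratio of Lgr5- to Sox9+ cells was −1.18. It was the 1 gene of this list lower in either comparison with Sox9+ cells, and none was higher. The shares of all measured genes that were lower were 3.96% in Lgr5+ and 4.94% in Lgr5- cells, and those higher 4.33% and 3.08%.

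The likeness of patterns was measured as the Euclidean distance between centred log2 values of FPKM + 1 over the 3 libraries, where 0 is the same pattern. Over so few libraries many genes come close, and for Nog, Chrd, Chrdl1, Grem1 and Bmper between 161 and 526 of 12726 candidate genes lay within 0.5. The nearest to Nog was Erbb3, to Chrd Igfbp7, to Chrdl1 Ninj2, to Grem1 Slc8a3 and to Bmper Klk8, with distances from 0.016 to 0.057. Col2a1, which encodes the main cartilage collagen, was the third nearest to Grem1, at 0.095. Cer1 and Chrdl2 had few close genes, with 3 and 6 within 0.5. The distance also counts the size of differences, and these 2 genes spanned the largest folds of the members (11.7 and 8.28). A small count here thus need not mean a rare order of the libraries, and for Cer1 the distance also rests on the pseudocount. The nearest to Cer1 were Inhba (distance 0.272), C2cd4b (0.317) and Plac1 (0.399), and the nearest to Chrdl2 were Plac1 (0.268), the basal keratin gene Krt5 (0.385) and Lmcd1 (0.427). Among the members themselves Cer1 and Chrdl2 were the closest pair, at 0.42, followed by Nog and Chrdl1 at 0.45.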

How the data were processed

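RNA from 3 sorted populations, 1 library each, was amplified as cDNA from 10 ng (SMARTer kit) and sequenced on a HiSeq instrument, per the labels' protocols. Per the submitters' processing notes, HISAT2 and mm10 (GRCm38) belong to the processing, with no role stated. What program made the values, on which annotation and with what treatment of reads with several matches is not given in the sources used here. Deposited by the authors was 1 FPKM value per gene symbol, rounded to 2 decimals. Amplification from low input adds noise to weak genes, and without replicates its size is unknown. Here, log2 ratios of FPKM + 1 were computed (Python 3.11.15, pandas 2.3.3), calls were made at 2-fold for genes reaching 1 FPKM in either library, and no statistical test was run. The code that makes the calls was checked on simulated data. Positions are from GENCODE M21, promoters from RefSeq. All 9 members are described; from each pathway list, up to 4 genes past 2-fold per comparison and the most abundant were eligible to be named, with the 3 genes most like a member in pattern. The older symbol Lrrc33 was used for Nrros. The members and lists were chosen with earlier results of these data known. Alternatives were 2 other pseudocounts, 2 other minimums, a 3-fold threshold and 4 scalings (TPM, median of ratios, sums without the most abundant genes, quantiles). The 25 symbols turned into dates were not used by name.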

Additional observations from a re-analysis of the deposited data

How the results depend on the processing

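None of the 27 log2 ratios of members changed sign under the 2 other pseudocounts and 4 other scalings (162 recomputed values). Of these values 140 stayed on their side of 2-fold and within 1.5-fold of the value given, and 22 did not, most of them with another pseudocount. At 3-fold or more, 2 members were higher in the Lgr5+ than in the Lgr5- library, 2 members passed in the comparison of Lgr5+ with Sox9+ (with 0 lower), and 3 were lower in the Lgr5- than in the Sox9+ library. With a pseudocount of 5 FPKM, 2 members passed in the comparison of Lgr5+ with Sox9+ (0 lower) and 2 in that of Lgr5- with Sox9+ (2 lower). With a pseudocount of 0.1 FPKM, 1 member, Bmper, was lower in the Lgr5+ than in the Lgr5- library. Chrd became the 1 member higher in the Lgr5- than in the Sox9+ library with that pseudocount and in TPM. Fewer or more weak genes pass because the pseudocount sets how much they are damped. The share of all measured genes at 3-fold or with another pseudocount was not computed, so these counts have no background beside them. Rescaling to TPM moved the median log2 ratio of all genes from 0.06 to 0.21 in the comparison of Lgr5+ with Sox9+, from −0.01 to 0.11 in that of Lgr5- with Sox9+ and from 0.08 to 0.11 between the Lgr5 libraries. Sums without the most abundant genes moved the second of these to 0.12. No paired analysis was possible because each population has 1 library. Depth could not be judged from FPKM, so how firm the values under 1 FPKM of Cer1 and Chrdl2 are is unknown.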
